A study of Mus musculus with 18 samples.

Results

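The Sult2a sulfotransferase family of the mouse was followed in liver RNA. Its 8 members, Sult2a1 to Sult2a8, were found by gene symbol among the 32285 genes of the count table, of which 21614 had a count in at least 1 library. The family was chosen by the counts of Sult2a7, which were low in Ground pups against BDF1 mice, so every difference of a member between these groups is given below as a description. Counts of members past a threshold there stand only beside the share over all genes, and nothing is read from them. Every other difference of Sult2a7 that uses its Ground or BDF1 libraries is a description too, with no test. The symbols alone selected the other 7 members. Liver RNA came from 18 mice in 3 groups of 6, all labelled as wild-type B6D2F1. Space pups and Ground pups were 10 weeks old. Each pup traces through its father's sperm to GS cells (germline stem cells, spermatogonial stem cells grown in culture) established from newborn testes of the DBA/2 strain. These cells were stored frozen for 6 months, aboard the International Space Station in the case of Space pups and on Earth in the case of Ground pups. They were then transplanted into testes of W mice, which carry Kit mutations and make almost no sperm of their own, and these recipients sired the pups with C57BL/6 females. By the study's methods the GS cells carried an EGFP transgene. The control group was BDF1 mice, the F1 cross of the same strains, whose age the labels do not give. Freezing, culture, transplantation and the transgene are shared by both pup groups and are not named for the control group, so in any comparison with BDF1 mice they cannot be told apart. The labels name neither the recipient father nor the litter of a pup.

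Cytosolic sulfotransferases transfer a sulfonate group from the donor PAPS (3'-phosphoadenosine-5'-phosphosulfate) to a hydroxyl or amino group of a small molecule. SULT2A enzymes act on hydroxysteroids such as dehydroepiandrosterone and on bile acids, which makes these compounds more soluble and easier to excrete. In mouse liver several Sult2a genes are known to be far more active in females than in males, under the control of the sex-specific pattern of growth hormone, whereas Sult2a8 is a hepatic sulfotransferase of bile acids that both sexes express.

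Animals of both sexes entered the study, but the labels name no sex. The replicate numbers separated the libraries. Xist, transcribed from the inactive X chromosome, had from 12218 to 21557 counts in replicates 4 to 6 of each group and from 0 to 187 counts in replicates 1 to 3. Y-linked transcripts (Ddx3y, Eif2s3y, Kdm5d and Uty, summed) ran the other way, with counts from 0 to 26 in replicates 4 to 6 and from 1822 to 2482 in replicates 1 to 3. By these transcripts replicates 1 to 3 read as male and replicates 4 to 6 as female in each group. Groups were therefore compared within replicates 1 to 3 and within replicates 4 to 6, with 3 libraries a group in each. Total counts per library ran from 15407450 to 20562351. Levels are CPM, counts per 10⁶ of the library size scaled by TMM (trimmed mean of M values), and 3 counts, taken as the upper limit where a library had none, were worth from 0.134 to 0.234 CPM. Such limits and counting intervals cover counting error only. The pup libraries of replicates 4 to 6 stood apart in composition. Alb, the albumin gene, took 17.6% to 24.1% of their counts, against 6.72% to 8.03% in BDF1 replicates 4 to 6 and 4.47% to 6.45% in all replicates 1 to 3. Their TMM factors were 0.704 to 0.970, against 1.03 to 1.17 elsewhere. Hepatocyte markers summed to between 59950 and 377800 CPM. The summed markers of cholangiocytes, at 1.02 to 4.96 CPM, adrenal cortex, at 1.34 to 8.09 CPM, and exocrine pancreas, at 0.0488 to 0.592 CPM, were low throughout. Endothelium markers summed to 47.4 to 58.3 CPM in Space, 77.3 to 90.03 CPM in Ground and 41.3 to 83.8 CPM in BDF1 replicates 4 to 6, and Kupffer cell markers to 115 to 157 CPM, 103 to 159 CPM and 56.5 to 123 CPM. Stellate cell markers summed to 122 to 196 CPM there without separating the groups. Red blood cell markers moved with the groups in replicates 4 to 6, where they summed to 182 to 665 CPM in Space pups, 95.6 to 532 CPM in Ground pups and 30.8 to 80.2 CPM in BDF1 mice. Intestine markers summed to 59.1 to 160 CPM, 54.4 to 124 CPM and 47.9 to 62.8 CPM in the same libraries, with 1 of the 4 at 0 in every library, and haploid germ cell transcripts reached 46.3 CPM in Space replicate 6.

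The 8 genes lie in a single cluster on chromosome 7 of GRCm38 (mm10). It spans chr7:13623967-14494230, 870264 bases, and holds 26 genes in GENCODE M21, 9 of them protein-coding. Obox8 is the coding gene of the cluster outside the family, and 4 Sult2a pseudogenes lie there too. Sult2a5 (13623967-13670807) and Sult2a2 (13733505-13779636) are on the plus strand. The other 6 are on the minus strand, in the order Sult2a1 (13796246-13837409), Sult2a4 (13909676-13989607), Sult2a3 (14067446-14123044), Sult2a6 (14222403-14254870), Sult2a8 (14410686-14446769) and Sult2a7 (14465051-14494230). No other annotated gene overlaps an exon of any member.

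How far reads can be assigned to single members depends on how alike the genes are. The first 90 coding bases of 5 members, each within 1 exon, are shown 5′ to 3′ because they separate Sult2a7 and Sult2a8 from the rest. They were read from the GENCODE M21 transcripts (GRCm38), and capitals mark bases that differ from Sult2a7. Their places are chr7:14492882-14492971 (Sult2a7), chr7:13837267-13837356 (Sult2a1), chr7:14254744-14254833 (Sult2a6) and chr7:14427830-14427919 (Sult2a8) on the minus strand, and chr7:13733559-13733648 (Sult2a2) on the plus strand.
Sult2a7: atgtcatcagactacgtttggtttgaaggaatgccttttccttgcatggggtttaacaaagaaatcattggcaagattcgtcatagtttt
Sult2a1: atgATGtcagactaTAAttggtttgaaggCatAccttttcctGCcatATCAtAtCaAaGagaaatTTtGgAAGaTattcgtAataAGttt
Sult2a2: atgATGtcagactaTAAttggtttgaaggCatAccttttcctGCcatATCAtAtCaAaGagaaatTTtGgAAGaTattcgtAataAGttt
Sult2a6: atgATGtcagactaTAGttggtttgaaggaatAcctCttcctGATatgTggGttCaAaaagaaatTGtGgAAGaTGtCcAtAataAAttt
Sult2a8: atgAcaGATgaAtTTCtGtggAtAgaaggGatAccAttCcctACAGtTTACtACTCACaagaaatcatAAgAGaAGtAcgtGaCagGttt
Sult2a1 and Sult2a2 are identical over this stretch and differ from Sult2a7 at 28 of 90 positions, as does Sult2a6, whereas Sult2a8 differs at 39. Over aligned coding sequence the 15 pairs among Sult2a1 to Sult2a6 were 88% to 97.9% identical, with a median of 93.8%. The closest pair was Sult2a1 and Sult2a2, at 97.9% over 582 aligned bases with an identical run of 151 bases. Sult2a7 was 79.8% to 82.2% identical to those 6, and Sult2a8 69.4% to 75.1% identical to the others. Of all 50-base stretches of a gene's transcripts, 62.1% were also present in the transcripts of another gene for Sult2a2, 34.5% for Sult2a5, 33.2% for Sult2a1, 25.5% for Sult2a4, 8.36% for Sult2a3 and 6.63% for Sult2a6. For Sult2a7 the number was 0 of 1273. Sult2a8 shared 1.96%, and 0 at a length of 100 bases. At 75 bases, near the read length in the paper's methods, the shares were lower. They were 47.2% for Sult2a2, 25.6% for Sult2a5, 19.5% for Sult2a1, 11.5% for Sult2a4, 1.8% for Sult2a3 and 1.45% for Sult2a6. Counts of Sult2a1 to Sult2a6 may therefore be divided among these genes in ways that depend on how shared reads were treated, which is not given in the sources used here, and their sum is reported beside them. Counts of Sult2a7 and Sult2a8 do not rest on that choice to the same degree.

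**Figure D1:**
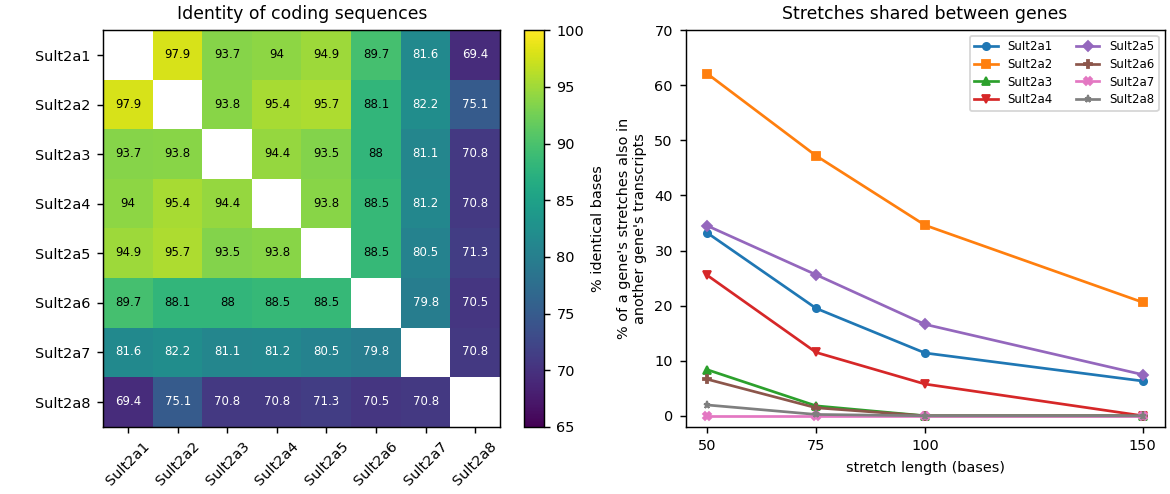
Likeness of the 8 Sult2a genes. Left, percent identity of aligned coding sequence for each pair of genes; right, percent of the distinct stretches of 50, 75, 100 or 150 bases in a gene's transcripts that also occur in another gene's transcripts, with 1 line a gene. Sult2a7 stays at 0 at every length, and Sult2a2 is highest, at 62.1% for 50 bases.

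Sult2a8, the bile acid sulfotransferase, had the highest median level per length over the 9 libraries of replicates 4 to 6, 143 CPM per kilobase of exon with a range of 113 to 172. Sult2a1 followed with a median of 85.3 (4.10 to 282) and Sult2a2 with 84.8 (12.8 to 278), and these ranges overlap one another and that of Sult2a8. The order of the means differed by group. In Ground pups Sult2a1 was at 186 ± 109 and Sult2a2 at 161 ± 109 CPM per kilobase, above Sult2a8 at 151 ± 18.5, whereas in BDF1 mice they were at 30.8 ± 23.5 and 41.7 ± 25.6 against 155 ± 10.6 (SD, n = 3 each). On the same scale the medians were 5.84 for Sult2a6, 4.09 for Sult2a5, 3.09 for Sult2a4, 1.59 for Sult2a7 and 0.230 for Sult2a3, with overlapping ranges between each pair of neighbours in this order. The place of Sult2a7 in it changed with the group, since its mean per kilobase was 11.2 ± 1.89 CPM in BDF1 mice, above the means of Sult2a3 to Sult2a6, and 0.182 ± 0.0691 CPM in Ground pups, below Sult2a3 at 0.874 ± 1.23 (SD, n = 3 each), where the spread of Sult2a3 exceeds the difference. Sult2a8 in replicates 1 to 3 had a median of 213 CPM per kilobase (177 to 237) and Sult2a7 of 0.921 (0.408 to 1.72). The other 6 genes were at or near a count of 0 there. These levels are per length of the annotated exons (741 bases for Sult2a2, 3284 for Sult2a8), and part of the difference between genes rests on which exons the annotation lists. In bulk RNA, fewer cells that express a gene and less RNA per cell cannot be told apart.

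**Figure D2:**
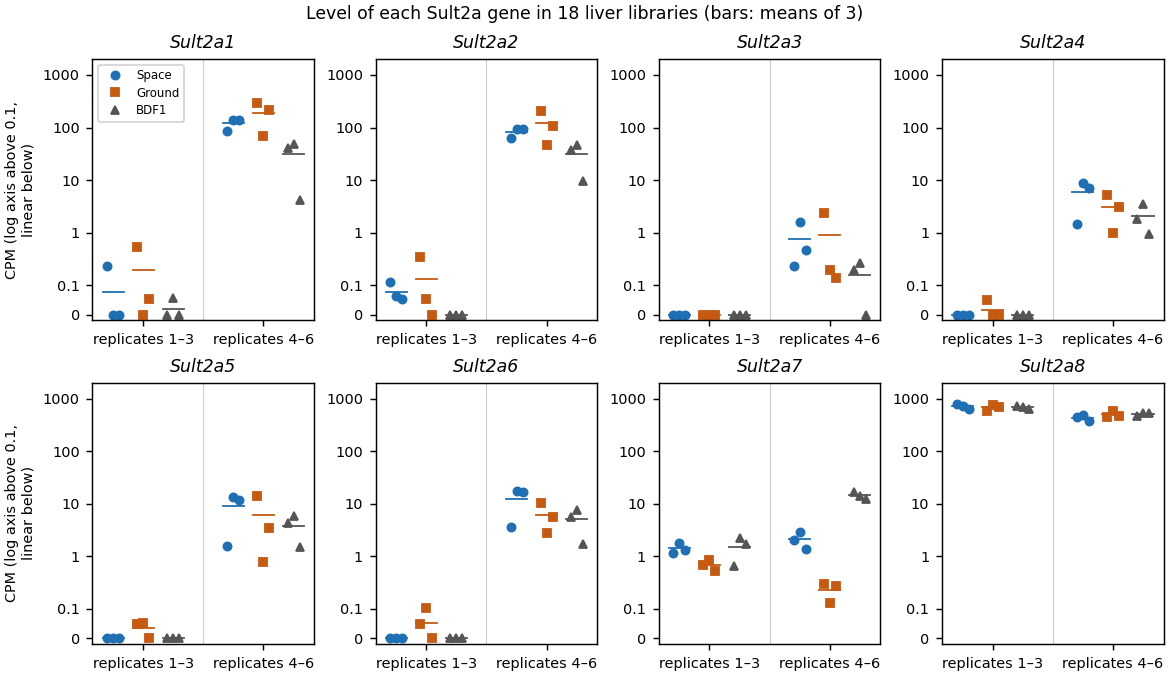
Level of each Sult2a gene in every liver library, in CPM on an axis that is logarithmic above 0.1 and linear below, with 1 panel a gene, points for libraries coloured by group and horizontal bars for means of 3. Replicates 1 to 3 and replicates 4 to 6 are set apart. Sult2a1 to Sult2a6 are at or close to 0 in replicates 1 to 3 of each group, Sult2a8 is between 372 and 779 CPM in every library, and Sult2a7 is highest in BDF1 replicates 4 to 6.

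Sult2a7 RNA was lowest in Ground pups, intermediate in Space pups and highest in BDF1 mice among replicates 4 to 6. It had 26, 49 and 24 counts in Space pups, 5, 2 and 4 counts in Ground pups, and 346, 306 and 245 counts in BDF1 mice. The levels were 2.03, 2.95 and 1.39 CPM in Space pups, 0.292, 0.132 and 0.276 CPM in Ground pups, and 17.0, 13.7 and 12.3 CPM in BDF1 mice. No 2 of the 3 groups overlapped, Ground pups were lowest in all 3 libraries, and 2 or 5 counts in a library leave the level there poorly known. The ratio of the pooled levels (summed counts over summed scaled library sizes) was 9.02 for Space over Ground, with a counting interval of 4.83 to 18.6. The fitted difference was 3.14 on the log2 scale with all 18 libraries and 2.81 to 3.38 with each library left out in turn. It is given no test, since the Ground libraries are those on which the gene was chosen. Endothelium markers also differed without overlap between these Space and Ground libraries, and their part in the difference was not tested. In the fit over 13356 genes 0.0225% of genes, 3 in all, passed an adjusted p of 0.05 between Space and Ground pups in replicates 4 to 6. The genes were Sult2a7, the 1 member called of 7 tested, Col20a1 and Nr0b2, and nothing about the family is read from that count.

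Space pups also had less Sult2a7 RNA than BDF1 mice in replicates 4 to 6. The mean was 6.77-fold lower, and the fitted difference was -2.75 on the log2 scale (-3.08 to -2.51 with a library left out), with 3 of 3 Space libraries below 3 of 3 BDF1 libraries. Sult2a7 was the 1 member called of 7 tested in this comparison, in which 11.9% of all genes were called, and nothing is read from that count. No test is given, since the BDF1 libraries entered the comparison that selected the gene. In Ground pups the pooled level was 61.1-fold lower than in BDF1 mice, a ratio of 0.0164 with a counting interval of 0.00814 to 0.0294. This is a description of the values on which the family was taken up. A total of 3 of the 7 members tested passed the threshold for Ground against BDF1 there, where 15.2% of all genes did. Sult2a7 is 1 of these 3, and nothing is read from that count. The ratio of Sult2a7 to Sult2a8 counts within a library needs no scaling between libraries. It was 0.00451, 0.00615 and 0.00373 in Space pups, 0.000642, 0.000232 and 0.000590 in Ground pups and 0.0364, 0.0263 and 0.0231 in BDF1 mice. These ratios kept the order of the groups without overlap. The pup libraries in these comparisons are those with the high Alb share and red blood cell markers, and the part of these in the difference from BDF1 mice was not tested beyond the change of scaling, under which the order stayed the same.

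**Figure D3:**
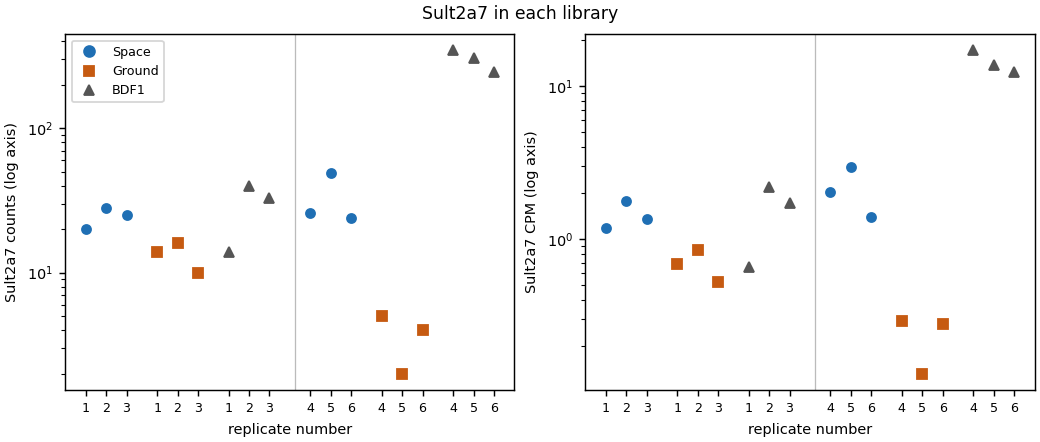
Sult2a7 in each of the 18 libraries, with points for libraries coloured by group and replicates 1 to 3 set apart from replicates 4 to 6. The left panel gives counts and the right panel CPM, both on logarithmic axes. Among replicates 4 to 6 the BDF1 libraries lie at 12.3 to 17.0 CPM, Space pups at 1.39 to 2.95 CPM and Ground pups at 0.132 to 0.292 CPM.

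The groups lay closer in replicates 1 to 3. Sult2a7 was at 1.18, 1.76 and 1.34 CPM in Space pups, 0.683, 0.844 and 0.521 CPM in Ground pups, and 0.656, 2.20 and 1.72 CPM in BDF1 mice, from 10 to 40 counts a library. Space pups lay above Ground pups in all 3 libraries, and BDF1 mice overlapped both. The fitted difference between Space and Ground was 1.05 on the log2 scale. Space against BDF1 was -0.08, and -0.46 to 0.27 with a library left out. Ground pups had a mean 2.23-fold below BDF1 mice. For replicates 1 to 3, 0 of 7 members were called by edgeR between Space and Ground, where 0.00749% of all genes were, a single gene, Prox1, and 1292 genes had an unadjusted p under 0.05. Likewise 0 of 7 were called between Space and BDF1, where 4.64% of all genes were and 2584 had an unadjusted p under 0.05, and 0 of 7 between Ground and BDF1, where the share was 1.92% and 2128 had an unadjusted p under 0.05. DESeq2 called 0 members in these 3 comparisons as well, though it gave Sult2a7 no adjusted p between Space and Ground. Nothing is read from these counts of 0, because 5 of the 7 members had from 0 to 11 counts in these libraries and passed the filter on low counts only through replicates 4 to 6.

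The level of Sult2a7 differed between the replicate sets in BDF1 mice, where replicates 4 to 6 were 9.42-fold above replicates 1 to 3. The fitted difference was 3.24 on the log2 scale and is a description, as these BDF1 libraries entered the choice of the gene, in a comparison in which 14.6% of all genes were called. In Space pups the difference was 0.57 (95% interval -0.22 to 1.37, edgeR adjusted p = 0.282), against a background of 21.9% of genes called. In Ground pups replicates 4 to 6 were 2.90-fold lower, with a fitted difference of -1.51 on the log2 scale, which is a description for the same reason (18.3% of all genes were called in this comparison). The difference between Space pups and BDF1 mice changed by -2.67 on the log2 scale from replicates 1 to 3 to replicates 4 to 6, again as a description.

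Sult2a8 was present in every library. In replicates 1 to 3 it was at 779, 713 and 643 CPM in Space pups, 582, 757 and 692 CPM in Ground pups and 706, 698 and 644 CPM in BDF1 mice. Among replicates 4 to 6 it was at 451, 479 and 372 CPM in Space pups, 455, 566 and 469 CPM in Ground pups and 468, 520.0 and 535 CPM in BDF1 mice. The groups overlapped within each replicate set, while replicates 4 to 6 were below replicates 1 to 3 of their own group in every library. The fall was 0.71 on the log2 scale in Space pups (a difference of -0.71, SE 0.14, edgeR adjusted p = 0.00151), and the differences were -0.45 in Ground pups (SE 0.14, edgeR adjusted p = 0.0297) and -0.43 in BDF1 mice (SE 0.14, edgeR adjusted p = 0.044). The call was lost without Ground replicates 2, 3, 4 or 6 for Ground pups, with adjusted p up to 0.0973. For BDF1 mice it was lost without any 1 of the 6 BDF1 libraries or Space replicate 1, without a filter on low counts and with scaling by total counts, with adjusted p up to 0.142. Over all alternatives the difference ran from -1.01 to -0.61 in Space pups, -0.88 to -0.36 in Ground pups and -0.48 to -0.37 in BDF1 mice. Between groups in replicates 4 to 6, Space differed from Ground by -0.19 (95% interval -0.49 to 0.10, edgeR adjusted p = 0.537) and from BDF1 by -0.23 (95% interval -0.52 to 0.07, edgeR adjusted p = 0.282). When libraries were scaled by total counts instead of TMM, which moved the median gene by -0.40 in this comparison, Space against BDF1 was -0.63 with an adjusted p of 0.00552. In replicates 1 to 3 the intervals were -0.22 to 0.37 for Space against Ground and -0.23 to 0.35 for Space against BDF1.

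**Figure D4:**
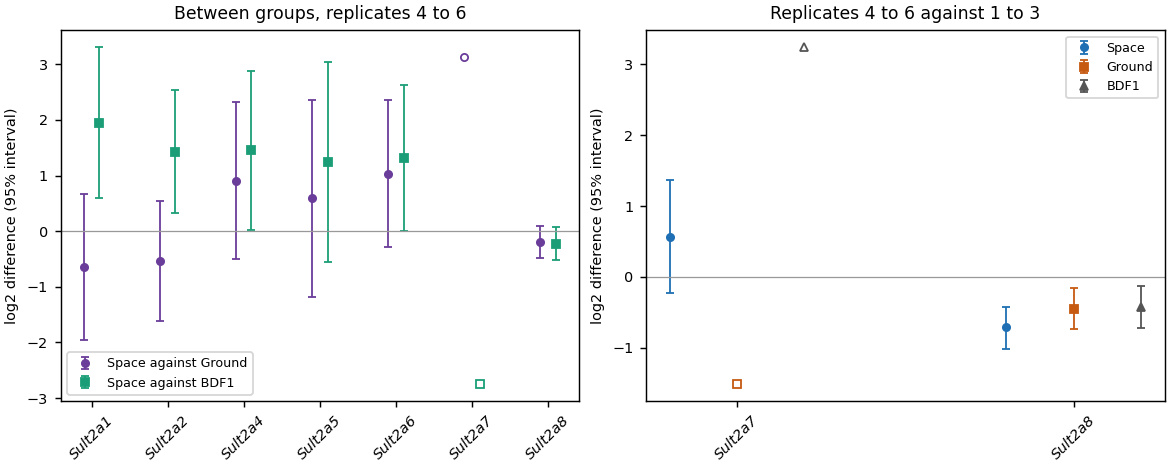
Fitted log2 differences with 95% intervals from the edgeR model over all 18 libraries. Left, Space against Ground and Space against BDF1 in replicates 4 to 6 for the 7 members that passed the filter on low counts; right, replicates 4 to 6 against replicates 1 to 3 of the same group for Sult2a7 and Sult2a8, the members with counts in all libraries. Open symbols without an interval are differences of Sult2a7 that use the Ground or BDF1 libraries on which it was chosen. Sult2a7 in Space pups is at -2.75 against BDF1, and Sult2a8 is at -0.19 against Ground and -0.23 against BDF1, with intervals that include 0.

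Sult2a1 and Sult2a2, the hydroxysteroid sulfotransferases known as female-specific in mouse liver, held most counts of the family outside Sult2a8 in the pup libraries of replicates 4 to 6. Sult2a1 in replicates 4 to 6 was at 87.0, 141 and 137 CPM in Space pups, 288, 68.8 and 213 CPM in Ground pups and 40.5, 49.4 and 4.18 CPM in BDF1 mice. Sult2a2 was at 62.9, 92.4 and 93.5 CPM in Space pups, 206, 47.0 and 105 CPM in Ground pups and 37.6, 45.7 and 9.48 CPM in BDF1 mice. Every pup library was above every BDF1 library for both genes, Ground replicate 4 was the highest library and BDF1 replicate 6 the lowest. With scaling by total counts, Ground replicate 5 fell among the BDF1 libraries for both genes, and Space replicate 4 did so for Sult2a2. The mean of Sult2a1 was 3.88-fold that of BDF1 mice in Space pups, with a fitted difference of 1.95 on the log2 scale (95% interval 0.60 to 3.31, edgeR adjusted p = 0.0505). For Sult2a2 it was 2.68-fold, with a fitted difference of 1.42 (95% interval 0.32 to 2.53, edgeR adjusted p = 0.079). Neither passed the threshold. Both passed it without Ground replicate 4 or without Ground replicate 5, libraries of neither group that enter this comparison only through the shared fit, with edgeR adjusted p from 0.0312 to 0.0438. Sult2a1 did so without Ground replicate 2 as well (0.0477), and both did without a filter on low counts (edgeR adjusted p = 0.0225 and 0.0425). DESeq2 gave adjusted p of 0.274 and 0.219. Space against Ground was -0.64 for Sult2a1 (95% interval -1.95 to 0.66, edgeR adjusted p = 0.659) and -0.53 for Sult2a2 (95% interval -1.61 to 0.55, edgeR adjusted p = 0.666), and the latter became 0.12 without Ground replicate 4. As a description, Ground pups were 6.05-fold above BDF1 mice for Sult2a1 and 3.87-fold for Sult2a2. With a library left out the fitted log2 differences ran from 2.08 to 3.09 for Sult2a1 and from 1.30 to 2.35 for Sult2a2, for which the value was 1.95 with all libraries and 1.30 without Ground replicate 4.

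Both genes were nearly silent in replicates 1 to 3. Sult2a1 had 4, 0 and 0 counts in Space pups, 11, 0 and 1 counts in Ground pups and 0, 1 and 0 counts in BDF1 mice. Sult2a2 had 2, 1 and 1 counts in Space pups, 7, 1 and 0 counts in Ground pups and 0 in all 3 BDF1 libraries. Ground replicate 1 held 11 of the 12 counts of Sult2a1 and 7 of the 8 of Sult2a2 in its set. It had 145 Xist counts and Ground replicate 2 had 187, against at most 30 in the other libraries of replicates 1 to 3. Set against these, the pooled level of Sult2a1 in replicates 4 to 6 was 1610-fold higher in Space pups (counting interval 627 to 5890). It was 947-fold higher in Ground pups (542 to 1830) and 1890-fold higher in BDF1 mice (339 to 74600). The last ratio rests on a single count in replicates 1 to 3. Without Ground replicate 1 the ratio in Ground pups was 7390 (1330 to 292000), resting on 1 count. For Sult2a2 the ratios were 1090 in Space pups (425 to 4000) and 904 in Ground pups (459 to 2100), the latter 4710 without Ground replicate 1 (844 to 186000), and in BDF1 mice it was at least 201-fold higher, against 3 counts a library as the limit for a count of 0. Sult2a1 to Sult2a6 are given no test between the replicate sets, because 5 of them passed the filter on low counts only through replicates 4 to 6 and Sult2a3 did not pass it.

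Within a library of replicates 4 to 6, Sult2a1 had 1.38, 1.52 and 1.47 times the counts of Sult2a2 in Space pups, 1.40, 1.46 and 2.02 times in Ground pups, and 1.08, 1.08 and 0.441 times in BDF1 mice. All 6 pup libraries lay above the 3 BDF1 libraries. This ratio does not depend on scaling between libraries, but it can move with the treatment of reads that both genes share.

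Sult2a4, Sult2a5 and Sult2a6, close paralogs of Sult2a1, were expressed at lower levels and without a clear order of the groups. Sult2a6 in replicates 4 to 6 was at 3.67, 17.1 and 16.8 CPM in Space pups, 10.1, 2.76 and 5.53 CPM in Ground pups and 5.66, 7.75 and 1.71 CPM in BDF1 mice. Sult2a5 was at 1.56, 13.6 and 11.9 CPM in Space pups, 13.7, 0.790 and 3.52 CPM in Ground pups and 4.28, 5.73 and 1.51 CPM in BDF1 mice. Sult2a4 was at 1.48, 8.91 and 7.05 CPM in Space pups, 5.25, 0.987 and 3.04 CPM in Ground pups and 1.82, 3.58 and 0.958 CPM in BDF1 mice. For these 3 genes Space replicates 5 and 6 and Ground replicate 4 were high, Space replicate 4 and Ground replicate 5 were among the low libraries, and all groups overlapped. Space against BDF1 was 1.32 on the log2 scale for Sult2a6 (edgeR adjusted p = 0.169), 1.24 for Sult2a5 (0.347) and 1.46 for Sult2a4 (0.160). Space against Ground was 1.03 (edgeR adjusted p = 0.465), 0.59 (0.791) and 0.91 (0.550) for the same genes. With a library left out these differences ran from 0.69 to 1.61, 0.07 to 2.08 and 0.48 to 1.55, highest for each gene without Ground replicate 4, and those against BDF1 from 0.91 to 1.76, 0.82 to 1.72 and 1.02 to 2.06. None of these differences passed the threshold, and the intervals for Space against Ground ran from -0.28 to 2.35, -1.19 to 2.36 and -0.50 to 2.32. Their order differed from that of Sult2a2. The ratio of Sult2a6 to Sult2a2 counts was 0.0584, 0.185 and 0.180 in Space pups, 0.0490, 0.0588 and 0.0524 in Ground pups and 0.151, 0.170 and 0.181 in BDF1 mice. Thus 2 of 3 Space libraries lay with or just above the BDF1 libraries, and Space replicate 4 lay with the Ground libraries.

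In replicates 1 to 3 the counts of these 3 genes were 0 in all Space and BDF1 libraries and at most 2 in a Ground library. Replicates 4 to 6 of Space pups were at least 33.1-fold higher for Sult2a4, at least 51.4-fold for Sult2a5 and at least 71.4-fold for Sult2a6. In BDF1 mice the same bounds were at least 13.8-fold, at least 24.9-fold and at least 32.7-fold higher. In Ground pups the ratios were 187 for Sult2a4 (counting interval 33.0 to 7420), 187 for Sult2a5 (51.2 to 1550) and 123 for Sult2a6 (41.8 to 601). Sult2a3 had no count in any library of replicates 1 to 3 and the lowest mean per kilobase of the members in replicates 4 to 6 of Space pups and BDF1 mice, while in Ground pups that of Sult2a7 was lower. Replicates 4 to 6 had 3, 27 and 8 counts in Space pups, 40, 3 and 2 counts in Ground pups and 4, 6 and 0 counts in BDF1 mice. It was at least 4.41-fold higher in replicates 4 to 6 of Space pups and at least 5.79-fold higher in those of Ground pups, while in BDF1 mice the bound was 1.01 and the sets overlapped. Ground replicate 4 held 40 of 45 counts, and without it no bound above the limit of 3 counts is left. Without Space replicate 5 the bound in Space pups was 1.98. In replicates 4 to 6 the groups overlapped.

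The summed level of the 8 genes does not depend on how reads were divided among them. It does not recover shared reads that were left out of the counts or assigned to Sult2a pseudogenes, if any were. Replicates 1 to 3 had 713 ± 68.3 CPM in Space pups, 678 ± 87.9 CPM in Ground pups and 684 ± 33.2 CPM in BDF1 mice (SD, n = 3 each), of which Sult2a8 made up 99.7% to 99.9% of counts in every library. The sum in replicates 4 to 6 was 669 ± 77.5 CPM in Space pups, 822 ± 148 CPM in Ground pups and 596 ± 44.0 CPM in BDF1 mice (SD, n = 3 each). The means of the sum thus lay within 1.38-fold of one another, while its makeup changed. Sult2a8 was 73.9%, 63.4% and 58.1% of family counts in Space replicates 4 to 6, 46.4%, 82.4% and 58.6% in Ground pups and 81.4%, 80.5% and 94.7% in BDF1 mice. Sult2a7 made up 0.217% to 0.390% of family counts in those Space libraries, 0.0192% to 0.0345% in Ground and 2.12% to 2.96% in BDF1. The sum of Sult2a1 to Sult2a6 was 157, 274 and 267 CPM in Space pups, 525, 120.5 and 331 CPM in Ground pups and 90.04, 112 and 17.8 CPM in BDF1 mice. On this scale no pup library was as low as any BDF1 library. The difference was 3.17-fold for the Space mean and 4.43-fold for the Ground mean, and the Space and Ground libraries overlapped. The SD was largest in Ground pups, at 202.5 CPM. Relative to the mean it was largest in BDF1 mice, at 0.673 against 0.622 in Ground pups. With scaling by total counts, Space replicate 4, at 119 CPM, and Ground replicate 5, at 91.4 CPM, fell among the BDF1 libraries (19.0 to 132 CPM). Under that scaling the log2 ratio of the 8-gene sum to BDF1 went from 0.17 to -0.23 in Space pups and from 0.47 to 0.02 in Ground pups, so no direction of the whole sum is given. No test was made on the sums.

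**Figure D5:**
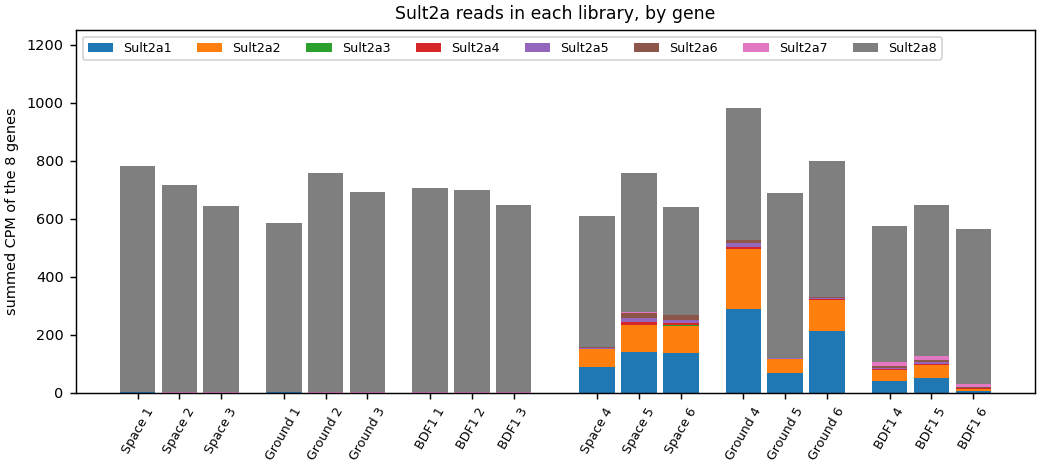
Summed level of the 8 Sult2a genes in each of the 18 libraries, in CPM, as bars from 0 stacked by gene. Bars of replicates 1 to 3 are almost wholly Sult2a8. Among replicates 4 to 6 Sult2a1 and Sult2a2 add to it, most in Ground replicate 4 (a sum of 980.4 CPM) and least in BDF1 replicate 6 (565 CPM).

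Sult2a1 to Sult2a6 varied together within the groups, and Sult2a7 and Sult2a8 did not follow them closely. Deviations of log2 CPM from the group means over the 9 libraries of replicates 4 to 6 correlated among Sult2a1 to Sult2a6 with Pearson r of 0.65 to 0.97 over 15 pairs, with a median of 0.82. For Sult2a7 with these genes r was 0.34 to 0.52, and for Sult2a8 with them -0.58 to -0.18. Without the 2 libraries farthest from the median, r was 0.54 to 0.94 among Sult2a1 to Sult2a6 and 0.08 to 0.39 for Sult2a7 with them. Sult2a7 with Sult2a8 had r of 0.04, and of -0.96 over the 7 libraries left. These values describe 9 libraries, and the genes share libraries, scaling and, among Sult2a1 to Sult2a6, possibly reads. Over deviations from the means of all 6 sets of libraries, 11727 genes were ranked by r with Sult2a7. The 5 highest were Tctn1 (Pearson r 0.83, Spearman rho 0.81, n = 18), Lilr4b (0.81 and 0.73), Aida (0.80 and 0.74), Evl (0.79 and 0.70) and Gm10762 (0.78 and 0.75), picked as the top of a long ranking. Without BDF1 replicates 1 and 2, farthest from the median of Sult2a7, r was 0.77, 0.61, 0.61, 0.52 and 0.63. For the sum of the 8 genes the 5 highest were Nf1 (r 0.91, rho 0.88), Kif5a (0.87 and 0.87), 0610040J01Rik (0.85 and 0.88), Nqo2 (0.84 and 0.77) and Gm4756 (0.84 and 0.82), and r was 0.88, 0.83, 0.89, 0.74 and 0.73 without Ground replicates 4 and 5.

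Because Sult2a3 to Sult2a6 were all near 0 in replicates 1 to 3 and present in replicates 4 to 6, their promoters were compared. The promoter table, RefSeq on GRCm38.p6, held 5 of the 8 members: Sult2a3, Sult2a4, Sult2a5, Sult2a6 and Sult2a8. No window is printed for Sult2a1, Sult2a2 and Sult2a7. Windows of 100 bases upstream of the start site are given 5′ to 3′ on the gene's strand, with capitals at matches to the motifs named after them. Each window was cut around the match nearest the start site, so that match falls at the same place in every window by construction. Measured from the start site, it begins at -51 in Sult2a3, -107 in Sult2a4, -28 in Sult2a5, -71 in Sult2a6 and -90 in Sult2a8. They lie at chr7:14123079-14123178 (Sult2a3, minus), chr7:13989675-13989774 (Sult2a4, minus), chr7:13623860-13623959 (Sult2a5, plus), chr7:14254921-14255020 (Sult2a6, minus) and chr7:14438621-14438720 (Sult2a8, the second annotated start site, minus).
Sult2a3: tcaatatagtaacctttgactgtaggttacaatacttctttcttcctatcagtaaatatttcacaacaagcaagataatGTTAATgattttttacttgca
Sult2a4: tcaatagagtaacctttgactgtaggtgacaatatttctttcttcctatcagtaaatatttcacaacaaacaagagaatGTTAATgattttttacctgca
Sult2a5: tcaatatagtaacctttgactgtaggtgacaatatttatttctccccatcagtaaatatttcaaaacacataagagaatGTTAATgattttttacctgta
Sult2a6: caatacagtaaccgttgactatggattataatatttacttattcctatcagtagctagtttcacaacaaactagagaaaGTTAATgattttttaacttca
Sult2a8: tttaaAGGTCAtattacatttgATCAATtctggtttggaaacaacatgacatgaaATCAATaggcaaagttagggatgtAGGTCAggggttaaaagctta
The promoters of Sult2a3 to Sult2a6 were 81.6% to 92.7% identical over 171 to 229 aligned bases, and those 4 share the 15-base run GTTAATgatttttta. Shared runs were sought only within the printed windows and only where they hold GTTAAT. On either strand of the 250 bases upstream, GTTAAT, a half-site of the liver factor HNF1, occurred in 6.43% of 32851 promoters of the table. It matched 2 times in Sult2a3, 2 times in Sult2a5 and 1 time each in Sult2a4 and Sult2a6. Neither annotated start site of Sult2a8 had a match to it, and the first had no match to any of the 4 motifs searched. At the second, ATTGAT, a core bound by HNF6 and CUX2 and present in 6.72% of promoters, matched 2 times, as ATCAAT on the strand shown. AGGTCA, a nuclear receptor half-site present in 14.0% of promoters, also matched 2 times there. The letters TTCNNNGAA, the core for STAT5 and BCL6, occurred in 7.02% of promoters and in none of these windows. The 4 motifs do not overlap one another where they matched, and they were chosen after the sequences had been seen. Matches describe letters only, and the promoters of close paralogs are not independent.

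Other genes of sulfonation were read in the same fit. Of 13 other sulfotransferase genes, 9 were tested. For replicates 4 to 6 of Space pups 3 were higher and 0 lower than in BDF1 mice, 3 of 9 against 11.9% of all genes, with a median log2 difference of 0.28 against 0.01 over all genes tested. Of the 3, Sult1e1 and Sult4a1 passed the filter on low counts only through pup libraries, so their direction against BDF1 mice was fixed and they are given as values. Called besides them was Sult1a1, a phenol sulfotransferase, at 870 ± 148 CPM in Space pups and 462 ± 42.0 CPM in BDF1 mice (SD, n = 3 each; log2 difference 0.91, SE 0.20, edgeR adjusted p = 0.00956). Sult1e1, the estrogen sulfotransferase, was at 0.720 and 0.0959 CPM, with at most 18 counts in a library. Sult4a1 had 0 counts in these BDF1 libraries and was uneven in Space pups, at 0.173 to 45.4 CPM. In replicates 1 to 3, 1 of the 9 was called for Space against BDF1, where 4.64% of all genes were. It was Sult1c2, higher in Space pups (log2 difference 1.00, SE 0.28, edgeR adjusted p = 0.0471). Between Space and Ground pups edgeR called 0 of the 9 in either replicate set. Of all genes it called 0.00749% in replicates 1 to 3 and 0.0225% in replicates 4 to 6, so nothing is read from this. The median log2 differences of the list were -0.27 in replicates 1 to 3 and 0.16 in replicates 4 to 6, against -0.01 over all genes tested in both. Sult1a1 was higher in replicates 4 to 6 than in 1 to 3 in each group, by 1.90 on the log2 scale in Space pups, 1.51 in Ground pups and 1.14 in BDF1 mice (edgeR adjusted p = 8.78e-06, 8e-05 and 0.00127). No count over the list is given between the replicate sets, because several of its genes had almost no counts in replicates 1 to 3. Sult3a1, an amine sulfotransferase, and its paralog Sult3a2 were, like Sult2a1, close to 0 in replicates 1 to 3. Sult3a1 had a mean of at most 1.98 CPM in replicates 1 to 3 and of 357, 304 and 339 CPM in Space, Ground and BDF1 replicates 4 to 6, and Sult3a2 of at most 0.267 CPM and then 118, 126 and 37.5 CPM.

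The supply of PAPS was described by 10 genes, of which 8 were in the table and tested. Papss2, the main PAPS synthase gene of liver, was the 1 gene of 8 called for Space against BDF1 in replicates 4 to 6, a share near the 11.9% of all genes, and the list had a median log2 difference of -0.09 against 0.01 over all genes tested. It was at 258 ± 24.8 CPM in Space pups, 234 ± 36.4 CPM in Ground pups and 447 ± 42.6 CPM in BDF1 mice (SD, n = 3 each). Space pups were lower than BDF1 mice by a log2 difference of -0.79 (SE 0.16, edgeR adjusted p = 0.00478). Papss2 was higher in replicates 4 to 6 than in 1 to 3 in each group, by 1.30 in Space pups, 1.43 in Ground pups and 1.73 in BDF1 mice on the log2 scale (edgeR adjusted p = 2.53e-05, 1.04e-05 and 2e-06). Papss1, which encodes the other PAPS synthase, and Bpnt1, which encodes a phosphatase that clears the spent donor, were lower in replicates 4 to 6 of Space pups (-0.75 and -0.56) and Ground pups (-0.60 and -0.48). In BDF1 mice the differences were -0.21 (edgeR adjusted p = 0.422) and -0.34 (0.0716), and whether the groups differ in them was not tested. Between Space and Ground pups 0 of 8 were called by edgeR in either set. The shares over all genes were 0.00749% in replicates 1 to 3 and 0.0225% in replicates 4 to 6, so nothing is read from this.

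Among 20 nuclear receptors and liver factors, 19 were tested and 1 was called between Space and Ground pups in replicates 4 to 6, where 0.0225% of all genes were. The list had a median log2 difference of -0.08 there, against -0.01 over all genes tested. Nr0b2, which encodes SHP, a repressor of bile acid synthesis induced through the bile acid receptor, was at 17.7 to 47.7 CPM in Space pups, 8.23 to 11.3 CPM in Ground pups and 48.4 to 65.3 CPM in BDF1 mice. It was higher in Space than in Ground pups by 1.87 on the log2 scale (SE 0.28, edgeR adjusted p = 0.0279), with no overlap between the groups. No gene was called in this comparison with group alone, the replicate set as an additive term, the replicate block or replicates 4 to 6 alone, or without any 1 of Space replicate 5, Ground replicates 1, 5 and 6 and BDF1 replicates 3 and 5, so the call of Nr0b2 was lost there too. Its mean was lowest in Ground pups and highest in BDF1 mice, and Space against BDF1 was -0.68 (edgeR adjusted p = 0.102). For Space against BDF1 in replicates 1 to 3, 2 of the 19 were higher and 1 lower, where 4.64% of all genes were called. In replicates 4 to 6, 2 of the 19 were higher and 0 lower, near the 11.9% of all genes called. Nr1i2, which encodes the xenobiotic receptor PXR, was higher in Space pups compared with BDF1 mice in replicates 1 to 3 (0.78, edgeR adjusted p = 0.00687) and in replicates 4 to 6 (0.77, edgeR adjusted p = 0.00387). Nr1i3, which encodes the receptor CAR, was higher in replicates 4 to 6 (1.04, edgeR adjusted p = 0.0279) and stood at -0.47 (0.397) in replicates 1 to 3, and the difference between the sets was not tested. Cux2, a factor known as female-specific in mouse liver, had means of at most 0.444 CPM in replicates 1 to 3, and of 44.7, 73.7 and 22.3 CPM in replicates 4 to 6 of Space, Ground and BDF1. The summed level of 10 liver genes known as female-biased was 27.7 to 75.6 CPM in replicates 1 to 3 and 1885 to 8687 CPM in replicates 4 to 6, and that of 10 known as male-biased was 5972 to 9750 CPM and 210.5 to 477 CPM. Sult2a1 to Sult2a6, like the first list, had their higher levels in replicates 4 to 6.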

How the data were processed

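Per the labels, stranded mRNA libraries were made from total liver RNA. The submitters' processing notes name bcl2fastq 2.20, cutadapt 4.6, HISAT2 2.2.1 and HTSeq 2.0.2 with build mm10. What the authors deposited is whole-number read counts for each gene, without normalization. The strand setting and the treatment of reads that match several genes are not given in the sources used here, and either could move counts between paralogs. Groups and replicate numbers came from the labels.

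All 18 libraries were fitted as 6 sets of 3 (group by replicates 1 to 3 or 4 to 6) with edgeR 4.0.16 in R 4.3.3, using filterByExpr, TMM factors and the quasi-likelihood F-test with 12 residual degrees of freedom, and Benjamini-Hochberg adjustment over 13356 genes at 0.05. The standard error is the log2 difference over the square root of F. Counting intervals are 95%, and a ratio given with such an interval is of pooled levels, not of means. Correlations used log2 CPM with a prior count of 2. The fit was checked on simulated data. Alternatives were DESeq2 1.42.0, its size factors, total-count scaling, no filter, other models and leaving out each library.

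The members and lists were chosen with earlier results of these data known. Named genes were all 8 members, list genes called in a comparison, Xist, 4 Y-linked genes, and the 5 genes (mean of at least 1 CPM) with the highest r to Sult2a7 and to the sum. Alb, Col20a1, Prox1 and Obox8 were named after their values were seen. P-values measure the spread between animals sharing group and replicate set. Coding sequences came from GENCODE M21 and promoters from RefSeq, aligned with Biopython 1.88.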

Additional observations from a re-analysis of the deposited data

Results flagged for a closer look

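Chance marks about 1 in 20 sets of libraries as holding a sample far from the others, which is about 1.5 of the 30 sets examined here. Sult2a3 in Space replicate 5 lay far above the other Space libraries, with a gap of 0.715 of the group's range, at 27 counts against at most 8. Sult2a3 in Ground replicate 4 had a gap of 0.915 of the range, at 40 counts against at most 3. Sult2a5 in Ground replicate 4 had a gap of 0.743 of the range, at 235 counts against at most 51. The same library was also the highest Ground library for Sult2a1, Sult2a2, Sult2a4 and Sult2a6. These groups mix replicates 1 to 3 with replicates 4 to 6.

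The difference in Sult2a7 between Space pups and BDF1 mice was unequal in the replicate sets, by -2.67 on the log2 scale. It is given as a description with no test, because the BDF1 libraries entered the comparison on which the gene was chosen.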

How the results depend on the processing

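Over 36 log2 differences of members, 824 of 898 alternative values kept their direction and side of the threshold, 35 lost the call, 17 gained it and 22 changed sign. For Sult2a7, Space against Ground in replicates 4 to 6 kept its sign throughout. It was 1.90 with group alone, 1.74 with the replicate set as an additive term, 3.13 with replicate number as a block, 3.13 with replicates 4 to 6 alone and 2.81 to 3.38 with a library left out. Space against BDF1 was -2.16 with group alone. Same-numbered libraries had a median correlation of -0.04 over 18 pairs (-0.61 to 0.25), and 6 of 18 libraries correlated best with their own number, so the numbers were not taken as pairs.

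Members called for Space against Ground in replicates 4 to 6 were 0 under those 4 models, 0 with DESeq2, which called 139 genes in all and gave Sult2a7 no adjusted p, and 0 to 1 with a library left out. For Space against BDF1 they were 2 in replicates 1 to 3 with the additive term, and in replicates 4 to 6 they were 0 with group alone, 3 without a filter, 2 with the additive term, 2 with total counts and 1 to 3 with a library left out. For Ground against BDF1 they were 1 with group alone, 3 with the additive term and 0 to 1 with a library left out in replicates 1 to 3, and in replicates 4 to 6 they were 1 with DESeq2, group alone or replicates 4 to 6 alone, 2 with the replicate block and 4 with total counts. Group alone and the additive term mix or share the replicate sets, so they ask another question.

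Signs changed for differences of at most 0.65 in size on the log2 scale, none of them called in the main fit. Sult2a8 in replicates 1 to 3 was -0.04 and -0.06 for Space against Ground, and -0.06 and -0.08 for Space against BDF1, with group alone and the additive term, and -0.07 for the latter with total counts. Sult2a6, Ground against BDF1 in replicates 4 to 6, was -0.14 with total counts. Sult2a8 in the same comparison kept its sign but went from -0.03 to -0.51 with total counts, given as a description. With a library left out, Sult2a8 ran from -0.03 to 0.16 (Space against Ground, 1 to 3), -0.01 to 0.13 (Space against BDF1, 1 to 3), -0.10 to 0.09 (Ground against BDF1, 1 to 3) and -0.14 to 0.03 (4 to 6). Sult2a2 ran from -0.91 to 0.12 (Space against Ground, 4 to 6) and Sult2a7 from -0.46 to 0.27 (Space against BDF1, 1 to 3). For Ground against BDF1 in replicates 4 to 6, Sult2a4 ran from -0.09 to 1.17, Sult2a5 from -0.85 to 1.17 and Sult2a6 from -0.29 to 0.74. The cause was not tested. Leaving out Ground replicates 1 and 4 and Space replicate 5 from the ratios between replicate sets was chosen after seeing the data. Depth limits Sult2a3, Sult2a7 in Ground pups and Sult2a1 to Sult2a6 in replicates 1 to 3.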
